A study of Mus musculus with 4 samples.

Results

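The genes described here encode 10 surface molecules, most of them ones through which a macrophage stimulates, restrains or holds on to a T cell. They are Cd80, Cd86, Icosl, Cd274 and Pdcd1lg2 of the B7 family, Cd40, Cd83, Icam1, Slamf1 and Cd69. Every probe set whose annotation names 1 gene, and that gene one of these, was taken, which gave 19 of the 45037 probe sets on the array that are not controls. All 10 genes had at least 1 probe set bright enough to test, with 17 of the 19 probe sets tested.

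The macrophages were mouse bone marrow cells cultured for 7 days, with 20% of the medium conditioned by L cells, which secrete M-CSF. Interferon-gamma (100 U/ml, overnight) primed all of them, and after a wash the stimulus lasted 2 h. One group (LPS_IC, 2 arrays) received lipopolysaccharide (LPS) at 10 ng/ml with immune complexes, antibody bound to antigen, which the series calls type II activation. The other group (LPS, 2 arrays) received LPS at 10 ng/ml alone, called classical activation. Interferon-gamma was common to both groups, and no unprimed or unstimulated array was analysed here, so the values below cannot say what LPS itself did to these genes. The labels name no mouse strain, sex or age, do not describe the immune complexes, and do not say that replicates were separate cultures, so the spread behind each p-value may be technical only.

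As background, an antigen-presenting cell shows a T cell antigen on MHC molecules, and the molecules beside it decide how the T cell answers. CD80 and CD86 bind CD28, which stimulates, and CTLA-4, which restrains. ICOS ligand binds ICOS, a relative of CD28, while PD-L1 (Cd274) and PD-L2 (Pdcd1lg2) bind the inhibitory receptor PD-1. CD40 receives the CD40 ligand signal from helper T cells, and ICAM-1 holds the cells together by binding the integrin LFA-1. In macrophages many of these genes are induced by LPS through NF-kB and by interferon-gamma.

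Immune complexes went with lower readings of 5 of the 10 genes and higher readings of 1, but none passed the test over the whole array. The lower ones, with both LPS_IC arrays below both LPS arrays, were Icosl, Cd69, Icam1, Cd40 and Cd83. Cd274 was the 1 gene whose brightest probe set read higher on both LPS_IC arrays. Of all 12891 genes tested, 13.1% read lower and 13.2% higher in this way, so 1 higher gene of 10 is near the share of all genes. The log2 fold change was -1.64 ± 0.41 for Icosl and -1.55 ± 0.34 for Cd69, and 0.60 ± 0.32 for Cd274 (limma, ± SE, n = 2 arrays per group). Cd86, Slamf1, Cd80 and Pdcd1lg2 overlapped between the groups at their brightest probe set. In RNA from whole cultures, fewer cells that express a gene and less of its RNA per cell cannot be told apart.

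No member passed in either direction at a Benjamini-Hochberg adjusted p under 0.05. Among all 27022 tested probe sets limma called 12 higher (0.0444%) and 2 lower (0.0074%). At an unadjusted limma p under 0.05, 5 of the 17 member probe sets were lower and 0 higher, against 0.947% lower and 1.86% higher of all tested. Groups that did not overlap were commoner: 7 of the 17 were lower and 2 higher, against 12% and 13.6% of all tested probe sets. With 1 probe set per gene the counts were 5 lower and 1 higher of 10, against 13.1% and 13.2% of 12891 genes. Where the mean signal reached at least 500, 7 of 12 member probe sets were lower and 1 higher without overlap, against 18.4% and 11.1% of 9703. Because the 10 genes were chosen with earlier results of these data known, these counts describe them and test nothing. With 2 arrays against 2, an exact permutation test of a single gene cannot go below a two-sided p of 0.333.

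The arrays had been scaled to the same trimmed mean signal of 500, yet their low signals differed. The median signal was 155.4 and 68.2 on LPS_IC replicates 1 and 2, and 88.3 and 79.6 on LPS replicates 1 and 2. LPS_IC replicate 1 thus stood apart by raised low signals, in the range where the probe sets of Cd80 and Pdcd1lg2 and the second probe set of Icosl lie. The median log2 fold change over all tested probe sets was 0.07, and that over the 17 member probe sets was -0.13. Macrophage markers were mostly bright, with Csf1r, the M-CSF receptor, between 26432.5 and 35375.3 on the 4 arrays. Itgam was dimmer, at 729.7 to 1965.6. Cd163, at 17.6 to 64.1, had a mean under the filter and was not tested. The summed signal of the 10 matched macrophage markers was 163478 and 191905 with immune complexes and 188199 and 231541 with LPS, so the sums overlapped between the groups. Of 9 tested macrophage markers, 3 (C5ar1, Cd14 and Lyz2) read lower and 0 higher without overlap, against 13.1% and 13.2% of the 12891 genes tested with 1 probe set each, and the part of these markers in the member results was not tested.

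**Figure D1:**
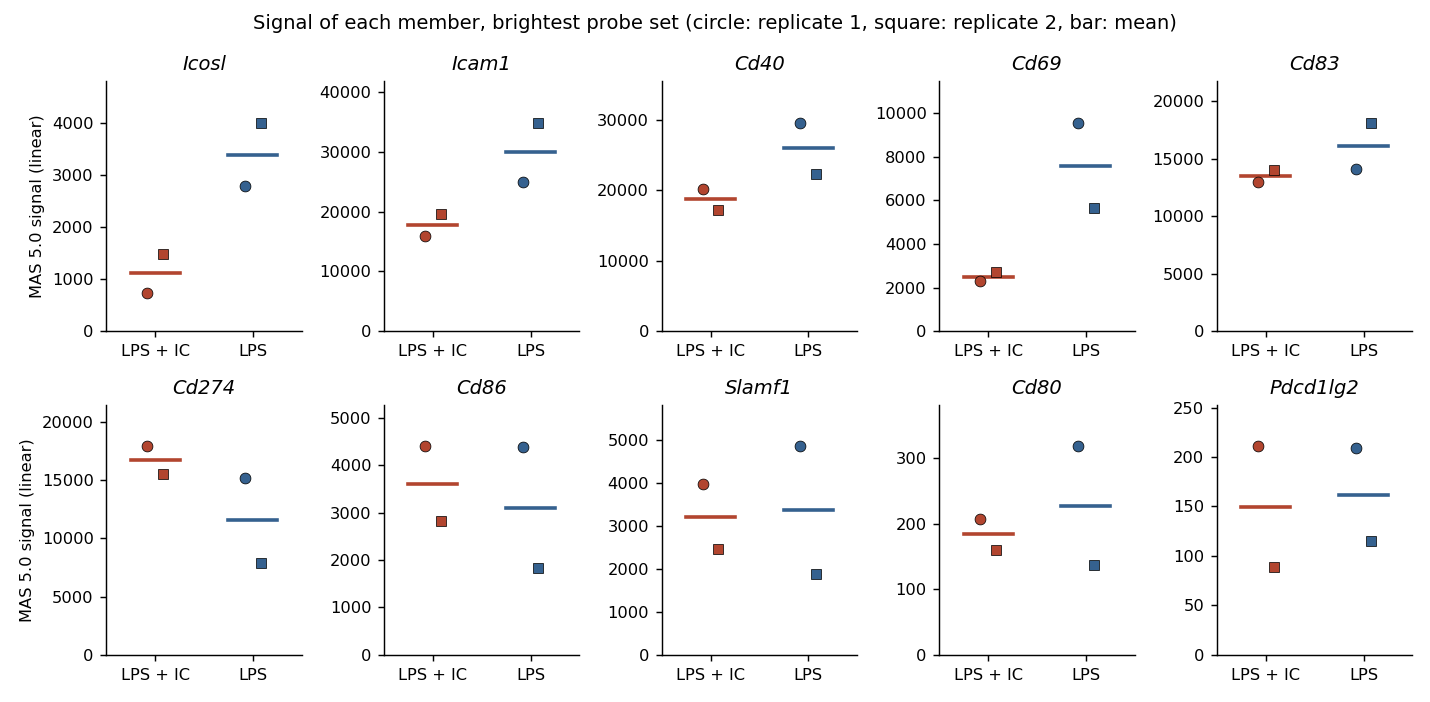
MAS 5.0 signal (linear vertical axis from 0, scaled per panel) of the brightest probe set of each of the 10 genes, with the LPS plus immune complexes arrays left and the LPS arrays right. Circles are replicate 1, squares replicate 2 and bars the means of 2 arrays. Icosl and Cd69 show wide gaps between the groups, Cd274 lies higher with immune complexes, and the lower row from Cd86 to Pdcd1lg2 overlaps, with replicate 1 above replicate 2 in both groups.

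A RefSeq promoter window of GRCm38.p6 was matched for 6 of the 10 genes. Whether sequence near the start bears on the readings was not tested. The 250 bases before the start are printed for Icosl and Icam1, which read lower with immune complexes, and for Cd274, which read higher. Capitals mark matches to any of 5 motifs, searched on both strands after the values were known: a kappaB-type site GGANNTTCC, an AP-1 site TGANTCA, a gamma-activated site TTCNNNGAA, a cAMP response element TGACGTCA and a TATA box TATAAA.
Icosl, chr10:78069118-78069367, plus strand: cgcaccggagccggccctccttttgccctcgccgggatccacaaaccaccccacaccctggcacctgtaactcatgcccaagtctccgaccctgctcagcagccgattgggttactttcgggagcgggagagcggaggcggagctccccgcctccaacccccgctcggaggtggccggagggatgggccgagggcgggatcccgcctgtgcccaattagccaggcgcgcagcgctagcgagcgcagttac
Icam1, chr9:21015690-21015939, plus strand: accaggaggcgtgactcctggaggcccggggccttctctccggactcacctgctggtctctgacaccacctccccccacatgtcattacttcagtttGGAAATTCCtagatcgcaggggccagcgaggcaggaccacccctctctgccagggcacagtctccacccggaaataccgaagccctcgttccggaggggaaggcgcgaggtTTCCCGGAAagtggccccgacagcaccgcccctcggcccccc
Cd274, chr19:29367188-29367437, plus strand: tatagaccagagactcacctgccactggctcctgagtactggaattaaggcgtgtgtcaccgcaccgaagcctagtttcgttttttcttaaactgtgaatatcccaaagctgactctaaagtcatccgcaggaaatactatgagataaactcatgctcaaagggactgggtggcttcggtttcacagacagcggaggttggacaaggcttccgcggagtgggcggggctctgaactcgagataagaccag
Icam1 held a kappaB-type match, GGAAATTCC, which fits the motif on either strand, 153 to 145 bases before the start, and a gamma-activated match, TTCCCGGAA, 42 to 34 bases before it. Of all 32851 promoter windows of the same length, 3.59% held the kappaB-type motif and 7.02% the gamma-activated one. The Icosl and Cd274 windows held none of the 5 motifs, which says only that these letters do not occur there. Of the other 3 windows, Cd80 held 1 AP-1 match, TGATTCA, 42 to 36 bases before its start, against 6.75% of all windows, and Slamf1 and Pdcd1lg2 held none. The cAMP and TATA motifs, held by 1.55% and 12.4% of all windows, were in none of the 6.

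Icosl, the ligand of ICOS, carried the lowest fold change of the 10 genes. Its brighter probe set, 1419212_at, read 743.3 and 1479.5 on LPS_IC arrays and 2783.6 and 4004.1 on LPS arrays. The groups did not overlap: every LPS_IC array lay 1.88-fold to 5.39-fold below every LPS array. The mean was 1111.4 ± 520.6 with immune complexes and 3393.9 ± 863.0 with LPS (SD, n = 2 each), a log2 fold change with a 95% interval of -2.53 to -0.75 and a limma adjusted p of 0.364. In fits without a replicate term, the log2 fold change was -1.90 without LPS replicate 1. Over the 4 arrays left out in turn it ranged from -2.12 to -1.16.
The other Icosl probe set, 1426087_at, was dim and gave no such pattern. It read 225.7 and 54.5 on LPS_IC arrays and 42.5 and 103.9 on LPS arrays, so the highest and the second lowest reading were both from LPS_IC. Its log2 fold change of 0.57 ± 0.80 turned to -0.22 when LPS_IC replicate 1 was left out.

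Cd86 and Cd80, the CD28 ligands, did not separate the groups. Cd86 read 4395.4 and 2822.3 on LPS_IC arrays and 4387.9 and 1822.5 on LPS arrays at probe set 1449858_at, so replicate 1 was the high one in both groups and the LPS arrays spread 2.41-fold. Its second probe set, 1420404_at, had 3179.1 and 2767.4 on LPS_IC arrays and 3048.4 and 1951.6 on LPS arrays. The 2 probe sets ordered the arrays alike, and their log2 fold changes were 0.31 ± 0.43 and 0.28 ± 0.35, with 95% intervals of -0.62 to 1.24 and -0.49 to 1.04. Both intervals reach past a 2-fold higher level, so they do not show that Cd86 was alike in the groups.
Cd80 was dim throughout. Its brightest probe set, 1451950_a_at, had 207.5 and 160.2 on LPS_IC arrays and 318.1 and 137.7 on LPS arrays, a log2 fold change of -0.18 ± 0.52. The next, 1432826_a_at, had 183.1 and 80.1 on LPS_IC arrays and 67.3 and 131.3 on LPS arrays, and a log2 fold change of 0.29 ± 0.68. The 2 tested Cd80 probe sets thus differed in sign and both overlapped between groups. The remaining 2, 1454372_at and 1427717_at, had means under the filter and readings from 3.4 to 116.3 on the 4 arrays, and were not tested.

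Of the PD-1 ligands, only Cd274 had groups that did not overlap. Cd274, which encodes PD-L1, read 17868.3 and 15531.6 on LPS_IC arrays and 15186.0 and 7899.5 on LPS arrays. Both LPS_IC readings were above both LPS readings, but LPS_IC replicate 2 lay only 1.02-fold above LPS replicate 1, while it lay 1.97-fold above LPS replicate 2. The log2 fold change was 0.60 ± 0.32 with a 95% interval of -0.08 to 1.29, and ranged from 0.13 without LPS replicate 2 to 1.07 without LPS replicate 1. With median centring its groups overlapped.
Pdcd1lg2, which encodes PD-L2, was dim. It read 210.7 and 89.2 on LPS_IC arrays and 208.9 and 115.2 on LPS arrays, so replicate 1 was the high array in both groups. Its log2 fold change was -0.13 ± 0.59 with a 95% interval of -1.42 to 1.15. RefSeq's gene table of GRCm38.p6 lists 1 gene between Cd274 and Pdcd1lg2. Whether the 2 ligands differed in their response was not tested.

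Cd40, the TNF receptor family member through which helper T cells activate macrophages, read lower at all 3 of its probe sets. The brightest, 1460415_a_at, had 20241.1 and 17193.1 on LPS_IC arrays and 29613.1 and 22361.9 on LPS arrays. Probe set 1439221_s_at had the tightest replicates of any member, 14720.9 and 14672.2 on LPS_IC arrays and 23545.3 and 22858.4 on LPS arrays. The third, 1449473_s_at, read 11482.7 and 13455.5 on LPS_IC arrays and 22932.5 and 18973.0 on LPS arrays. No LPS_IC reading reached the lowest LPS reading of the same probe set.
The Cd40 log2 fold changes were -0.46 ± 0.24, -0.66 ± 0.23 and -0.75 ± 0.25 in that order, with unadjusted limma p of 0.0824, 0.0152 and 0.0113 and limma adjusted p of 1 each. The probe sets target 1 gene and share the same 4 RNA samples, so they are not 3 independent results. Those whose names end in _s_at can bind several transcripts. With quantile normalization 1460415_a_at overlapped between the groups, with a log2 fold change of -0.31.

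Cd83, a marker of mature antigen-presenting cells that keeps CD86 and MHC class II at the surface, read 12959.1 and 14012.5 on LPS_IC arrays and 14101.9 and 18138.0 on LPS arrays. The groups did not overlap by a narrow margin, since LPS_IC replicate 2 was 1.01-fold below LPS replicate 1. The log2 fold change was -0.25 ± 0.25, with a 95% interval of -0.80 to 0.31, and the groups overlapped after quantile normalization.

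Icam1, the ligand of LFA-1 and a classic NF-kB target, was bright on every array. It read 15889.0 and 19589.0 on LPS_IC arrays and 25024.0 and 34853.3 on LPS arrays. Replicate 2 was the higher array in both groups, and each LPS_IC array lay 1.28-fold to 2.19-fold below each LPS array. The mean was 17739.0 ± 2616.3 with immune complexes and 29938.7 ± 6950.4 with LPS (SD, n = 2 each). The log2 fold change of -0.74 ± 0.25 had a 95% interval of -1.29 to -0.19, an unadjusted limma p of 0.0122 and a limma adjusted p of 1.

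Cd69, a C-type lectin-like early activation antigen that holds lymphocytes in tissue by removing the S1P1 receptor from their surface, had the smallest p of the members. It read 2296.7 and 2702.6 on LPS_IC arrays and 9560.8 and 5637.5 on LPS arrays. It was the 1 member at least 2-fold lower in all 4 pairs of an LPS_IC with an LPS array, a property of 0.185% of all tested probe sets, with pairs between 2.09-fold and 4.16-fold lower. No member was 2-fold higher in all 4 pairs, against 0.755% of all. The LPS_IC arrays were 1.18-fold apart and the LPS arrays 1.70-fold.
The Cd69 mean was 2499.7 ± 287.0 with immune complexes and 7599.2 ± 2774.2 with LPS (SD, n = 2 each), a 2.92-fold lower level by the mean of log2 values. The 95% interval of the log2 fold change was -2.29 to -0.80 and the limma adjusted p was 0.232. In fits of all 4 arrays without a replicate term, Cd69 passed when no filter on low signals was applied (limma adjusted p = 0.0388). Its log2 fold change was -1.93 without LPS replicate 2 and -1.17 without LPS replicate 1. Cd69 is also a gene of activated lymphocytes. Of 9 matched T cell markers, Cd3e, Cd3d, Cd3g and Lat read 8.3 to 94.2 on the 4 arrays, with means under the filter, and 5 were tested. Among the tested ones Cd247, a signalling chain of the T cell receptor, read lower without overlap as Cd69 did, with 227.0 and 144.9 on LPS_IC arrays and 578.2 and 257.6 on LPS arrays. Cd28 read higher without overlap, and Zap70, a kinase of the same receptor, overlapped at 369.6 to 604.0. Of 6 matched NK cell markers, Klrk1 read 1322.0 to 2839.5 and overlapped, while Ncr1 read 8.9 to 57.9. The part of these markers in the Cd69 result was not tested.

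Slamf1, a homotypic SLAM family receptor that also binds Gram-negative bacteria in macrophages, had 3 probe sets that did not order the arrays alike. The brightest, 1425570_at, read 3963.0 and 2457.1 on LPS_IC arrays and 4843.9 and 1885.9 on LPS arrays. Probe set 1425569_a_at read 1699.4 and 789.0 on LPS_IC arrays and 2145.2 and 337.8 on LPS arrays. In both, replicate 1 was the high array within each group, by 1.61-fold and 2.15-fold with immune complexes and by 2.57-fold and 6.35-fold with LPS, more than the groups differed.
The third, 1425571_at, had 495.3 and 528.9 on LPS_IC arrays and 411.5 and 123.6 on LPS arrays, so both LPS_IC readings were above both LPS readings. The log2 fold changes were 0.04 ± 0.44, 0.41 ± 0.68 and 1.05 ± 0.52 in that order. The first 2 turned to -0.63 and -0.87 without LPS replicate 2, and the third then stood at 0.29.

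**Figure D2:**
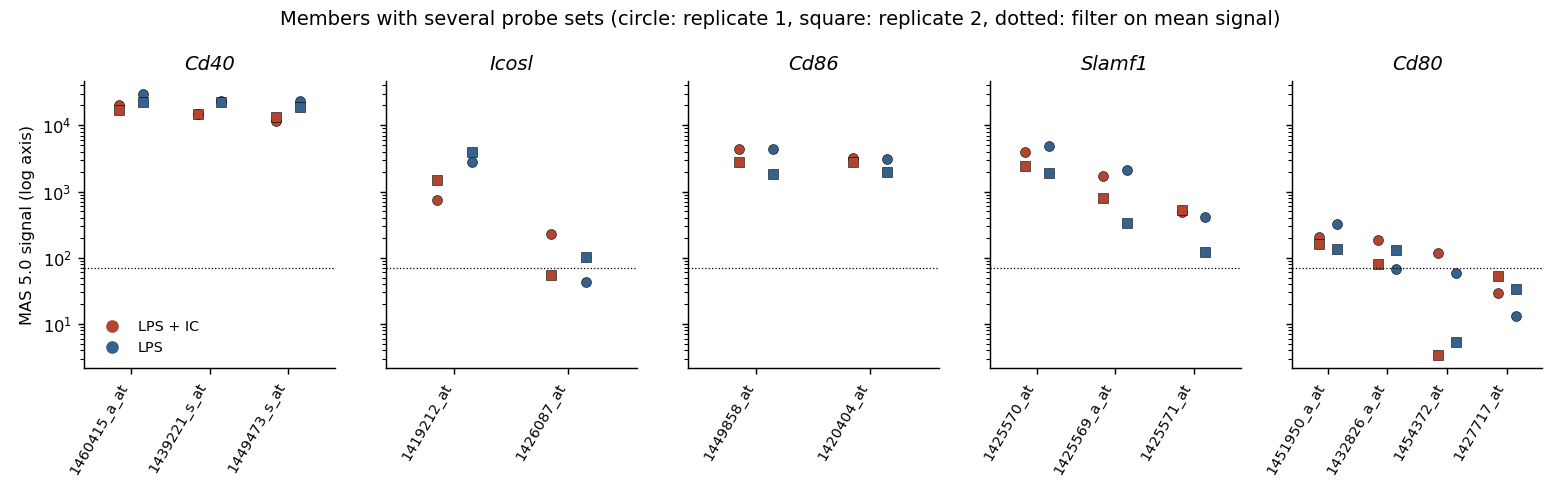
MAS 5.0 signal (log vertical axis) of every probe set of the 5 genes with more than 1, LPS plus immune complexes at the left of each pair and LPS at the right. Circles are replicate 1, squares replicate 2, and the dotted line is the filter on mean signal at 69.6. The 3 Cd40 probe sets all read lower with immune complexes, 1460415_a_at by the narrowest margin. The dim Icosl probe set and the Cd80 probe sets scatter, and the upper 2 Slamf1 probe sets follow the replicate.

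**Figure D3:**
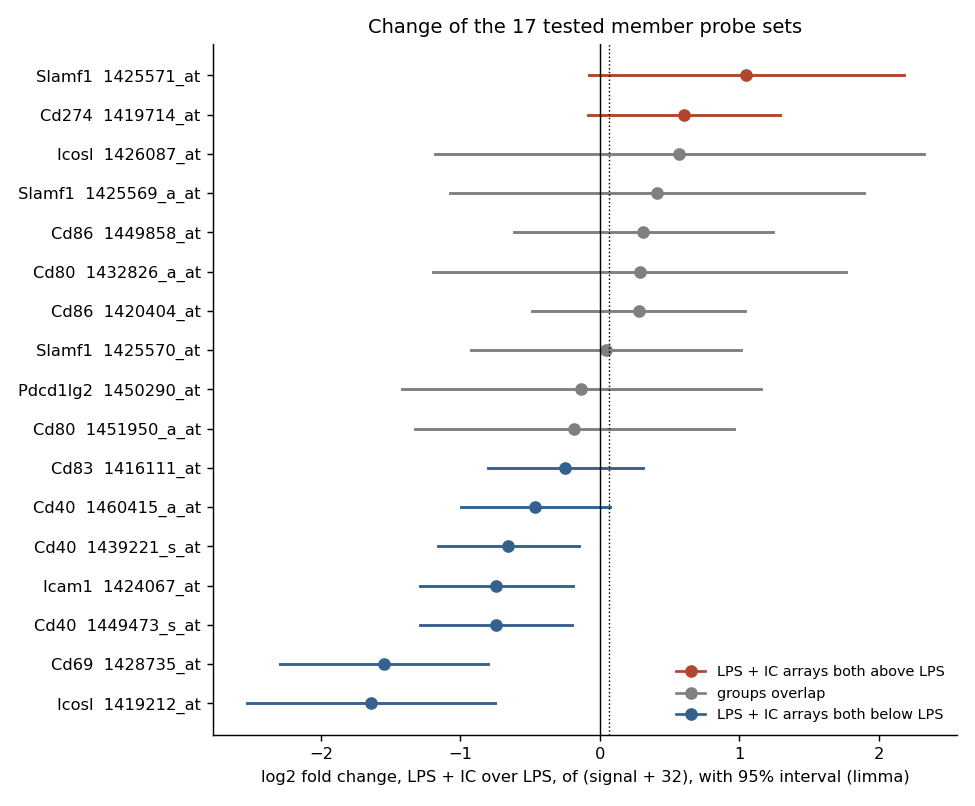
Log2 fold change of the 17 tested member probe sets, LPS plus immune complexes over LPS, with limma's 95% interval; the dotted line is the median of all tested probe sets, 0.07. Of the intervals, 5 lie wholly below 0, those of 1 Icosl, 1 Cd69, 1 Icam1 and 2 Cd40 probe sets, and 0 lie wholly above it.

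Related genes were read from lists set out around the members, with 1 probe set per gene and no test of a list. No gene of these lists passed the threshold, against 0.0621% of the 12891 genes tested. The median log2 fold change over all genes was 0.05, and that of the 10 members was -0.22. Bright probe sets had a lower median. Where the mean signal reached at least 500, it was -0.09 over all 9703 probe sets and -0.355 over 12 member probe sets. The counts of genes without overlap in these lists stand beside 13.2% higher and 13.1% lower of all 12891 genes, so that 1 gene of 6 or of 12 is near the share of all genes.

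Of 16 other B7-like, TNF family and checkpoint ligands matched, 12 were tested, with a median of -0.23, and 4 read lower and 1 higher without overlap. The higher one was Cd24a, a small glycosylphosphatidylinositol-anchored protein that binds the inhibitory receptor Siglec-G. It read 786.6 and 716.9 on LPS_IC arrays and 121.6 and 118.1 on LPS arrays, a log2 fold change of 2.37 ± 0.42 with a limma adjusted p of 0.0945. Tnfrsf14 (HVEM), which binds BTLA and LIGHT, read 415.0 and 304.8 on LPS_IC arrays and 1098.9 and 706.5 on LPS arrays. Cd47, the signal against phagocytosis, had 8926.2 and 10098.6 on LPS_IC arrays and 14903.7 and 13604.9 on LPS arrays. Their log2 fold changes were -1.24 ± 0.42 and -0.58 ± 0.26, neither past the threshold.

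The T cell partners of these ligands were mostly dim. Of 10 matched, 4 were under the filter, among them Pdcd1 (PD-1) with readings of 10.5 to 59.2 and Cd40lg with 14.5 to 99.3. Cd28 read 315.5 and 288.8 on LPS_IC arrays and 72.2 and 172.2 on LPS arrays, a log2 fold change of 1.19 ± 0.52. Havcr2 (TIM-3), which macrophages also express, read 336.3 and 448.7 on LPS_IC arrays and 499.5 and 753.0 on LPS arrays. The list of 6 tested had a median of -0.17, with 1 gene higher and 1 lower without overlap.

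In the SLAM family and its adaptors, 9 of 10 matched genes were tested, with a median of 0.14, and 2 read higher and 0 lower without overlap. Slamf8, a negative regulator of the NADPH oxidase in macrophages, read 4873.1 and 4256.7 on LPS_IC arrays and 1856.8 and 1689.2 on LPS arrays. Its replicates were close in both groups and its log2 fold change was 1.35 ± 0.32, with a limma adjusted p of 0.312. Cd244a, the receptor of CD48, read 423.2 and 309.7 on LPS_IC arrays and 299.1 and 62.9 on LPS arrays.

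Of 12 adhesion genes around Icam1, all tested, 2 read lower and 1 higher without overlap, with a median of -0.13. Itgal, the alpha chain of LFA-1 and thus a partner of ICAM-1, read 5153.2 and 3010.8 on LPS_IC arrays and 11371.4 and 6289.7 on LPS arrays. Vcam1, the ligand of the integrin VLA-4, read 3464.9 and 1827.7 on LPS_IC arrays and 7030.1 and 5356.2 on LPS arrays. The log2 fold changes were -1.10 ± 0.37 for Itgal and -1.27 ± 0.37 for Vcam1, with limma adjusted p of 1 and 0.655. Ezr (ezrin), which ties membrane proteins such as ICAM-1 to actin, read 6959.6 and 9087.6 on LPS_IC arrays and 6596.2 and 5384.0 on LPS arrays.

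Of 11 tested genes of CD40 signalling, 3 read lower and 1 higher without overlap, with a median of -0.24. Birc2 (cIAP1) read 949.8 and 1341.1 on LPS_IC arrays and 2420.7 and 3014.6 on LPS arrays, and Birc3 (cIAP2) 7703.0 and 8135.2 against 14185.9 and 13993.0. Both are ubiquitin ligases recruited to CD40 through TRAF proteins. Traf5, which encodes a member of the TRAF family, read 1226.8 and 1178.1 on LPS_IC arrays and 847.3 and 642.4 on LPS arrays. None of the 3 passed.

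Of 14 tested transcription factors known to act on genes of this kind, 4 read higher and 4 lower without overlap, with a median of -0.08. The AP-1 proteins Fosl1 and Fos were among the higher ones, with 1053.2 and 609.5 on LPS_IC arrays and 201.8 and 180.7 on LPS arrays for Fosl1. Batf3, a factor of dendritic cell development, read 125.8 and 312.9 on LPS_IC arrays and 466.9 and 464.8 on LPS arrays. The NF-kB subunit Rela overlapped between the groups, with 7126.8 and 8823.2 on LPS_IC arrays and 8638.0 and 13325.9 on LPS arrays.

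Of 7 tested genes of MHC class II and its surface turnover, 4 read lower and 1 higher without overlap, with a median of -0.24. Marchf8, a ubiquitin ligase that removes surface proteins, was the higher one, with 985.7 and 1327.1 on LPS_IC arrays and 822.9 and 894.2 on LPS arrays. Its relative Marchf1, which takes CD86 and MHC class II from the surface, read 958.6 and 925.0 on LPS_IC arrays and 2255.8 and 811.2 on LPS arrays, so the groups overlapped. H2-Aa had a log2 fold change of -0.31 ± 0.21 and H2-DMa one of -0.34 ± 0.27.

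Markers of other cells the cultures could hold were mostly dim, with exceptions such as Klrk1 and the dendritic cell chemokine Ccl22. Summed over a list's probe sets, dendritic cell markers had 2831.4 and 2805.5 on LPS_IC arrays and 1706.3 and 3298.6 on LPS arrays, with 1 of 8 tested higher and 0 lower without overlap, and Flt3 at 17.6 to 95.4. Ccl22 read 838.1 and 1798.4 on LPS_IC arrays and 478.9 and 1972.7 on LPS arrays, and the 1 marker higher without overlap was Cd209a. T cell markers summed to 2324.8 and 1568.6 on LPS_IC arrays and 1623.4 and 1595.5 on LPS arrays, and B cell markers to 1193.3 and 585.5 against 722.5 and 661.3. NK cell markers had 3388.5 and 2014.6 on LPS_IC arrays and 3209.7 and 1675.1 on LPS arrays, most of it from Klrk1. Neutrophil, fibroblast and endothelial markers each summed to at most 1579.7 on any array. In every one of these 7 lists but the dendritic cell one, LPS_IC replicate 1 held the highest sum, and in no list did the sums separate the groups.

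**Figure D4:**
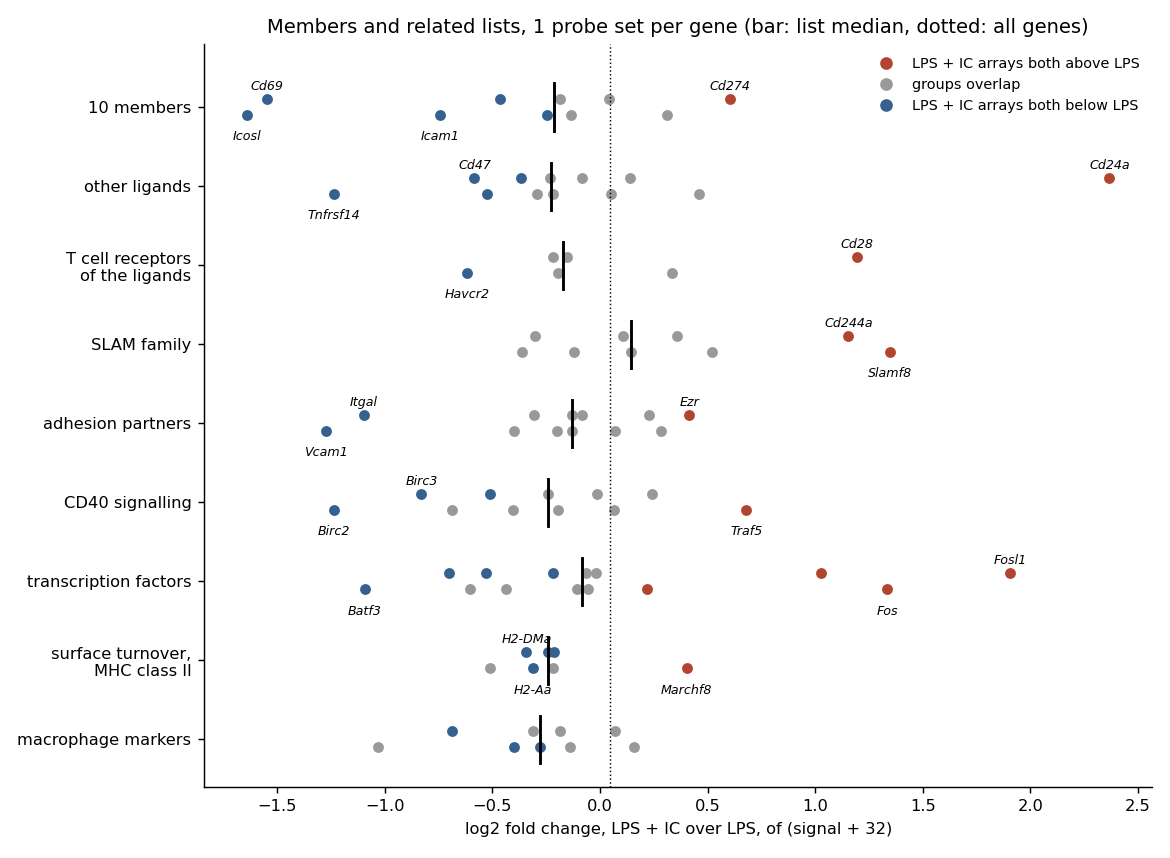
Log2 fold change of each tested gene (dots, 1 probe set per gene) in the members and in 8 lists around them, LPS plus immune complexes over LPS. Black bars are list medians and the dotted line is the median of all genes, 0.05. Cd24a at 2.37 and Fosl1 at 1.90 lie furthest above, Icosl and Cd69 furthest below.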

How the data were processed

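RNA from 4 macrophage samples was hybridised to a mouse Affymetrix array. The authors deposited 1 linear intensity for each probe set on each array, computed with MAS 5.0 according to the submitters' processing notes. The genome build and detection calls are not given in the sources used here. Sample titles gave the groups and replicate numbers.

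The scale of the fits was log2(signal + 32), on which a change of a dim probe set is understated. Left out were 64 control probe sets and those whose mean signal lay under the 40th percentile (69.6). Over the remaining 27022, LPS_IC was compared with LPS by lmFit and eBayes of limma 3.58.1 in R 4.3.3, using a variance trend and no block, with Benjamini-Hochberg adjustment over all of them. The procedure was tested on simulated data. With 2 arrays per group, their number limits the precision.

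Probe sets were named from GEO's annotation of the platform. Of 162 names in 16 lists, 148 matched. The members and lists were chosen with earlier results of these data known. Every member was named, and of each other list up to 3 genes by size among those whose groups did not overlap, since none passed. Rela, Marchf1, Csf1r, Itgam, Klrk1, Zap70, Ccl22 and the dim markers were named after their values were seen. Promoter windows came from RefSeq (GRCm38.p6). Alternatives covered normalization, pseudocount, filter, trend, threshold, probe set class, replicate block and left-out arrays.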

Additional observations from a re-analysis of the deposited data

How the results depend on the processing

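The counts over all probe sets, 12 higher and 2 lower with immune complexes, depended on most settings. They were 33 and 14 with median centring, 20 and 3 with a pseudocount of 1, 6 and 0 with one of 100, 68 and 21 without a filter, 4 and 0 with the 60th percentile as filter, and 32 and 5 at adjusted p under 0.1. They were 0 and 0 with quantile normalization, without the variance trend, and with a filter at a mean signal of 500, which was chosen after seeing the data. Leaving out 1 array gave from 0 to 77 higher (0 without either LPS_IC array, 74 without LPS replicate 1) and from 0 to 32 lower; a lone array then borrows its spread from the other group. The replicate numbers are shared by the groups but nothing in the labels pairs the samples, though deviations of same-numbered arrays correlated (r = 0.38 over probe sets). With the replicate block limma called 404 higher (1.5%) and 267 lower (0.988%), among them Cd274 higher and 1 probe set each of Icosl, Cd69 and Icam1 and 2 of Cd40 lower; with quantile normalization as well, added after seeing the data, it called 537 and 366. Both blocked fits took 1 variance per signal level (infinite prior degrees of freedom), whatever the spread of a single probe set. So did the fit with median centring and the fits without LPS replicate 1 and without LPS replicate 2.

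Of the 17 tested member probe sets, those of Cd40, Cd274, Cd69, Cd83 and Icam1, the brighter one of Icosl and 1425571_at of Slamf1 kept their direction in every setting run. Higher members without overlap were 2 of 17 (13.6% of all probe sets), but 0 with median centring (9.12% of all), 1 of 12 at a mean signal of 500 (11.1%), and 2 to 7 with 1 array left out (24.7% to 46.6%). The 7 higher without LPS_IC replicate 2 stood beside 46.6% of all, and the 7 without LPS replicate 1 beside 32.2%. Lower ones were 7 (12% of all), 5 to 7 in the other settings with all arrays (8.93% to 18.4%), and 7 to 10 with 1 array left out (25.5% to 34.4%). The members' median, -0.13, lay between -0.50 without LPS replicate 2 and 0.37 without LPS_IC replicate 2. With all arrays it was 0.04 when probe sets ending in _x_at or _s_at, among them Cd40 ones, were left out. The sign of this median thus depended on the arrays and on the probe sets used. Slamf1 at 1425570_at was -0.15 with median centring. With 1 array left out, log2 fold changes turned sign for Cd80 at 1451950_a_at (-0.71 to 0.34) and 1432826_a_at (-0.18 to 0.76), Cd86 at 1449858_at (-0.31 to 0.94) and 1420404_at (-0.039 to 0.60), Pdcd1lg2 (-0.64 to 0.37), Icosl at 1426087_at (-0.22 to 1.36), and Slamf1 at 1425570_at (-0.63 to 0.72) and 1425569_a_at (-0.87 to 1.69). The cause was not tested. MAS 5.0 signal over background is not known for the dim ones.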
